A study of Mus musculus with 40 samples.

Results

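The mRNAs described here encode the hypoxia-inducible factor (HIF) subunits and the enzymes that sense oxygen for them. They are Hif1a, Epas1 and Arnt for the subunits, Egln1, Egln2 and Egln3 for the prolyl hydroxylases, Vhl for the ubiquitin ligase adaptor and Hif1an for the asparaginyl hydroxylase. The 8 genes were taken by symbol from a table of 27179 genes, and each was found once. HIF is a dimer of an oxygen-regulated alpha subunit, HIF-1alpha (Hif1a) or HIF-2alpha (Epas1), and a stable partner encoded by Arnt. With oxygen present, EGLN enzymes (also called PHD1 to PHD3) hydroxylate prolines of the alpha subunit, VHL then binds it and marks it for degradation, and the HIF1AN enzyme (FIH) blocks its coactivator contact. In macrophages, lipopolysaccharide (LPS) raises Hif1a mRNA without hypoxia, and HIF-1alpha drives glycolytic and inflammatory genes.

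The libraries came from bone marrow-derived macrophages (BMDMs) of adult male mice, wildtype (WT) or total Cpeb4 knockout (Cpeb4-/-), on a mixed C57BL/6J and 129 background. Marrow was differentiated for 7 days with L-cell conditioned medium as the M-CSF source, and the cells were left untreated or received 10 ng/ml of E. coli LPS for 1, 3, 6 or 9 hr. CPEB4 is an RNA-binding protein that recognizes cytoplasmic polyadenylation elements in 3′ untranslated regions. Each genotype had 4 mice and each mouse gave 1 library per time, 40 in all. The 4 WT mice carry the numbers 25, 69, 87 and 88 and the 4 Cpeb4-/- mice the numbers 2, 3, 55 and 62. The mice were spread over 6 cages and no cage held both genotypes, so cage and genotype cannot be told apart. Batches 1 and 2 each held 2 mice of either genotype. The values are rlog, a log2 scale on which counts of low genes are shrunk, so a difference of 1 is a 2-fold change and weakly expressed genes show less than their true change. Because rlog is not divided by transcript length, levels are compared between libraries and not between genes.

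Replicate libraries correlated at 0.998 to 0.999 over all genes. The library of Cpeb4-/- mouse 2 at 9 hr stood farthest from the other 3 of its group, with a median distance of 0.190 per gene where the median of the 40 libraries was 0.0895, so results at 9 hr are also given without it. All 7 macrophage markers were high (mean rlog 9.66 for Mertk to 18.2 for Lyz2). Of the endothelial markers, which matter because Epas1 is known from endothelium, Tek and Emcn lay below 0 (means -0.79 and -2.32), Cdh5 averaged 3.19, Pecam1 5.28 and Kdr 9.37. The log2 summed level of the 7 macrophage markers, which Lyz2 dominates, ran from 18.6 to 19.0 in Cpeb4-/- and from 18.9 to 19.3 in WT, and at each time every knockout library was below every WT library. The summed endothelial level, which Kdr dominates, was 10.5 to 11.0 in Cpeb4-/- and 9.67 to 10.1 in WT at 9 hr. It was higher in the knockout without overlap at every time but 6 hr. Within each genotype it was higher at 6 hr of LPS (10.8 to 11.4 in Cpeb4-/-, 10.6 to 11.1 in WT) than untreated (8.10 to 8.23 and 7.71 to 7.99). Markers with a mean above log2 of 5 numbered 2 of 5 for neutrophils, 1 of 5 for fibroblasts, 2 of 3 for dendritic cells, 1 of 3 for erythroid cells, and 0 of 3 each for B and T cells. The part of either difference in the results below was not tested. In bulk samples fewer cells of a type and less RNA per cell cannot be told apart. The Cpeb4 row itself separated the genotypes only at 6 hr, by -1.27 (adjusted p = 0.00114 by limma), and overlapped at the other 4 times, so it does not check the labels there. Which exons the knockout lacks was not used here.

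After 6 hr of LPS the Cpeb4-/- macrophages held more Hif1a, Egln1, Egln3 and Vhl mRNA and less Egln2 mRNA than WT. Of the members called at both 6 and 9 hr, Egln3 differed by 1.84-fold and 1.85-fold and Egln1 by 1.29-fold and 1.37-fold, and Egln2 was lower. Of 15 alternative runs, 9 lost the Vhl call at 6 hr. The Egln2 call was lost in 3 at 6 hr and in 10 at 9 hr, and the Egln3 call at 9 hr in 5. Untreated and at 1 and 3 hr no member passed the test. Epas1 and Arnt passed it at no time. By 9 hr of LPS Hif1a had risen to 3.14 times its untreated value in WT and 3.97 times in Cpeb4-/-, and Epas1 had fallen to 0.402 and 0.417 of it. These changes were smaller after quantile normalization and still passed the test.

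**Figure D1:**
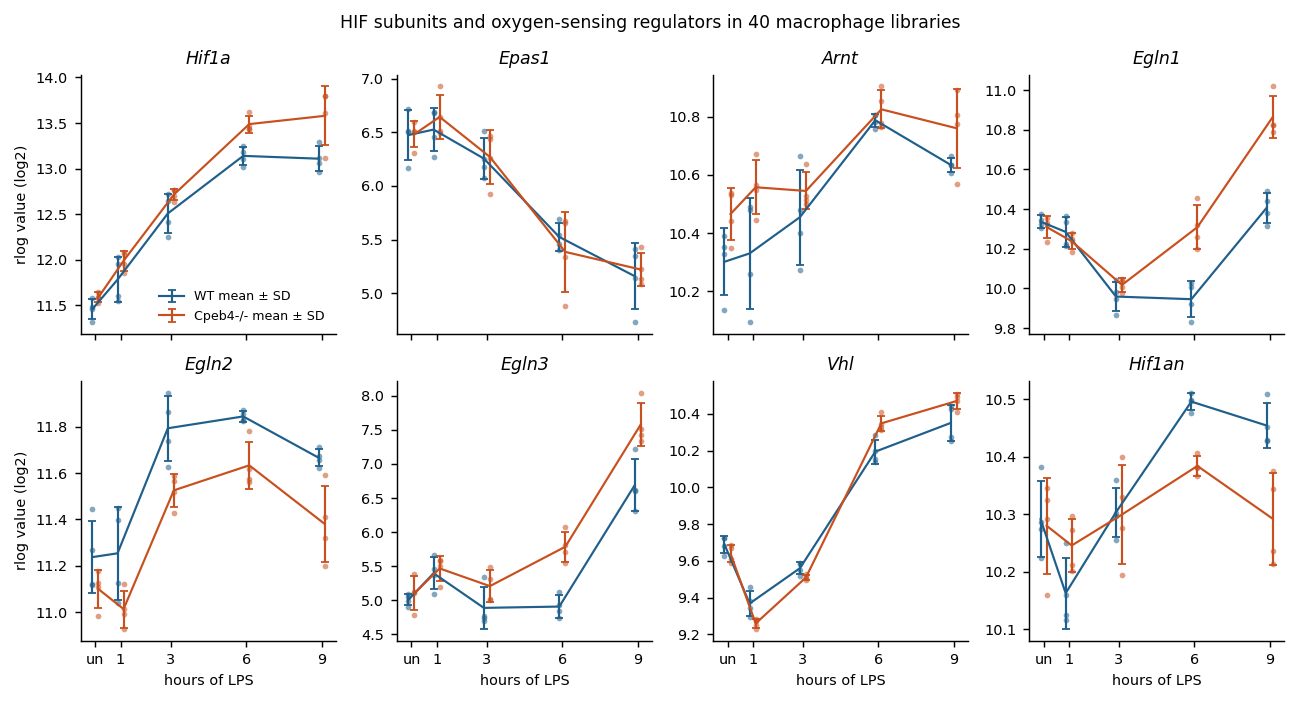
Deposited rlog values (log2, y axis, a separate scale for each gene) of the 8 genes against hours of LPS (un, untreated) in WT (blue) and Cpeb4-/- (orange) macrophages. Small points are the 4 mice of a group and the lines join group means with SD bars. The Egln1 and Egln3 lines part at 6 hr and stay apart at 9 hr, while the Epas1 lines run together throughout.

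Hif1a lies on chromosome 12 (12:73901324-73947554, GRCm38, plus strand). In untreated WT libraries its rlog values were 11.58, 11.48, 11.32 and 11.46 for mice 25, 69, 87 and 88. In untreated Cpeb4-/- libraries they were 11.52, 11.65, 11.59 and 11.60 for mice 2, 3, 55 and 62. These ranges overlap. At 6 hr the WT values were 13.19, 13.10, 13.02 and 13.25 and the Cpeb4-/- values 13.44, 13.43, 13.63 and 13.46. Every knockout library was above every WT library. The difference was 0.35 (SE 0.0582, 1.27-fold, adjusted p = 0.00222 by limma over 13039 genes). At 9 hr the WT values were 12.96, 13.12, 13.07 and 13.29 and the Cpeb4-/- values 13.11, 13.79, 13.61 and 13.80. Mouse 2, the lowest knockout library, lay inside the WT range and the other 3 lay above it. The difference of 0.47 (SE 0.138) did not pass the test, with an adjusted p of 0.0626 by limma. Without mouse 2 the difference was 0.63 (adjusted p = 0.000718), and with all 40 libraries and the mouse as a block it was 0.47 (adjusted p = 0.00279 by limma). Within batches the 9 hr difference was 0.67 and 0.27, and mouse 2 belongs to the second of these. About 5.6% of the exon bases of Hif1a overlap the antisense gene Gm15283, whose reads cannot be told apart because the library kit does not mark strand. The protein-coding gene Gm49321 on the same strand shares 148 exon bases with Hif1a (2.51%).

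Within each genotype Hif1a rose after LPS. In WT the changes from untreated after 1, 3, 6 and 9 hr were 0.32, 1.05, 1.68 and 1.65 (SE 0.111, adjusted p = 0.0202 at 1 hr and 2e-10 or less later, limma). In Cpeb4-/- they were 0.40, 1.13, 1.90 and 1.99 (adjusted p = 0.0037 at 1 hr and 3.65e-11 or less later). The 1 hr calls were lost after quantile normalization (0.16 in WT and 0.21 in Cpeb4-/-, adjusted p = 0.259 and 0.108), and in WT also without mouse 25 or 69 (adjusted p = 0.0759 and 0.16). That scaling left the later rises past the test and reduced those of WT to 0.66, 1.05 and 1.28 and those of Cpeb4-/- to 0.74, 1.27 and 1.61. The contrasts of a genotype share its 4 untreated libraries. All 4 mice of either genotype rose at each time. The change at 9 hr was larger in Cpeb4-/- by 0.34 (SE 0.158), which did not pass the test of the difference (adjusted p = 0.364). Ordered by level, Cpeb4-/- at 9 and 6 hr came first, then WT at 6 and 9 hr, then 3 hr, 1 hr and untreated, with the knockout ahead of WT each time. The neighbours Cpeb4-/- 9 and 6 hr (gap 0.09) and WT 6 and 9 hr (gap 0.03) were closer than their SD.

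The bases before the start of transcription are shown for Hif1a, Egln1 and Egln3, the subunit and the hydroxylases that were higher in the knockout at 6 hr. Promoters were matched for 7 of the 8 members in RefSeq, all but Epas1. The capitals mark ACGTG or GCGTG, the core letters of a hypoxia response element, searched on both strands, where a match on the other strand reads CACGT or CACGC. The windows hold the 250 bases before the start site in GRCm38.p6, written 5′ to 3′ along the gene. For Hif1a the start used, 73907867, lies inside the gene span given above and not at its first base.
Hif1a, chr12:73907617-73907866, plus strand: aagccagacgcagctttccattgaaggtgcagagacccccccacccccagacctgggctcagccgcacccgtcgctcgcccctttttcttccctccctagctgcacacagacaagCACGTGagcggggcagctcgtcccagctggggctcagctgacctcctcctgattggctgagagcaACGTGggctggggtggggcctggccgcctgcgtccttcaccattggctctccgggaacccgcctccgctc
Egln1, chr8:124949255-124949504, minus strand: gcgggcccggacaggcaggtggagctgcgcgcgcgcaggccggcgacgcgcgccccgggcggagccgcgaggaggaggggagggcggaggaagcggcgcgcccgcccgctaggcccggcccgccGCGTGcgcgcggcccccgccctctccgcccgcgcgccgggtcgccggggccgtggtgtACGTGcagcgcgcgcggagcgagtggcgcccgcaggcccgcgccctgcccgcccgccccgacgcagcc
Egln3, chr12:54203875-54204124, minus strand: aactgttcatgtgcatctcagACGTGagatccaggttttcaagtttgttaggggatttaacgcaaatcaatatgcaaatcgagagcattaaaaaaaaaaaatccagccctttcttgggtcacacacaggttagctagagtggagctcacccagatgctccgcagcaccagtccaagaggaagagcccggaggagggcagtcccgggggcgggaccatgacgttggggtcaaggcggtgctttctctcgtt

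The Hif1a window held 3 matches, of which 2 are the same CACGTG read on either strand, and the third began at -70 from the start. The Egln1 window held 2 (at positions -126 and -68 from the start) and the Egln3 window 1 (at -229). The first of the 2 Egln2 windows held 4, the second 1, the Arnt window 1, and the Vhl and Hif1an windows none. At least 1 match was found in 38.6% of 32851 promoter windows, at least 3 in 6.58% and at least 4 in 2.58%. The NF-kB consensus was found in no member's window and in 7.25% of all windows. Such a match is a run of letters, and binding was not measured.

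Since CPEB4 binds cytoplasmic polyadenylation elements, the longest annotated 3′ untranslated region (3′UTR) of each member was searched for TTTTAT and TTTTAAT. The study also counted other motifs, such as TTTTGT, which were not searched here, so a count of none does not mean that every such element is absent. To class an mRNA as containing such elements, the study also used their distance to the polyadenylation signal. Hif1a held 6 in 1827 bases, and 8.08% of 1585 3′UTRs within 10% of its length held as many. Vhl held 6 in 2064 bases (9.29% of 1496 held as many), Arnt 4, Epas1 3, Egln1 2, Egln3 2, Hif1an 1 in 5116 bases, and Egln2 none in 498 bases. For ATTTA, the core of AU-rich elements, Hif1a held 8 (as many in 8.58% of like lengths), Egln3 4, Hif1an 4, Egln1 3, Arnt 3, Epas1 2, Vhl 1 and Egln2 none. These motifs can share letters with each other. The searched element nearest to the last polyadenylation signal is shown in capitals for both genes with 6, in GRCm38 as GENCODE vM21 annotates it.
Hif1a, chr12:73946997-73947026, plus strand: tttctacattcaTTTTATtgccattttcta
Vhl, chr6:113631400-113631429, plus strand: ttgaaacattggTTTTATttttttaaaccg

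The Hif1a element lay 495 bases from that signal and the Vhl element 198. Binding of CPEB4 to either was not measured here, and the study's sequencing of CPEB4-bound mRNAs was not used.

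Epas1 (17:86753864-86833410, plus strand), the HIF-2alpha subunit, moved opposite to Hif1a. Untreated WT values were 6.72, 6.51, 6.16 and 6.51 and Cpeb4-/- values 6.52, 6.60, 6.51 and 6.31. At 9 hr they were 5.35, 4.73, 5.14 and 5.41 in WT and 5.09, 5.43, 5.23 and 5.14 in Cpeb4-/-. Every 9 hr library lay below every untreated library, and the genotypes overlapped at both times. From untreated to 9 hr Epas1 fell by 1.32 in WT macrophages and by 1.26 in the knockout (SE 0.155, adjusted p = 2.06e-09 and 5.58e-09 by limma). At 6 hr it was -0.95 and -1.10, and at 1 and 3 hr neither genotype passed the test. After quantile normalization the changes in WT and the knockout were smaller, -0.64 and -0.76 at 6 hr and -1.01 and -1.01 at 9 hr. They still passed. The genotype difference lay between -0.14 and 0.12 at the 5 times with adjusted p of 0.515 to 0.976 by limma, and at 9 hr it was 0.11 without knockout mouse 2 (adjusted p = 0.65). In the order of the 10 group means the one step wider than the SD was that from 3 hr to 6 hr (0.73).

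Arnt (3:95434367-95497240, plus strand), the constitutive partner, changed little. Its rlog group means ran from 10.30 in untreated WT to 10.83 in Cpeb4-/- at 6 hr. It rose at 6 and 9 hr, by 0.49 and 0.33 in WT and by 0.36 and 0.29 in Cpeb4-/- (SE 0.0751, adjusted p of 0.000749 or less by limma). After quantile normalization the WT rises were 0.25 and 0.19, and the knockout rises were 0.12 and 0.14 and no longer passed (adjusted p = 0.118 and 0.0786). At 3 hr the WT change of 0.15 did not pass (adjusted p = 0.0687 by limma), and it passed with the mouse as a block (0.0371) and without mouse 25 (0.0453). The largest genotype difference was 0.23 at 1 hr (adjusted p = 0.119, and 0.0232 in the 40-library fit with the mouse as a block). At 9 hr it was 0.13 (adjusted p = 0.25), and 0.19 without mouse 2 (adjusted p = 0.00705).

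A factor common to all genes of a library cancels in the difference between Hif1a and Epas1, except as far as rlog shrinks the weaker Epas1 more. A scaling that depends on level, such as quantile normalization, does not cancel. The difference was 4.86 to 5.15 in untreated WT and 5.01 to 5.29 in untreated Cpeb4-/- libraries, and rose in both. At 6 hr it was 7.49, 7.70, 7.57 and 7.71 in WT mice 25, 69, 87 and 88, and 7.78, 7.76, 8.29 and 8.59 in Cpeb4-/- mice 2, 3, 55 and 62. The genotypes did not overlap, the lowest knockout library lying just above the highest WT library. The mean difference was 0.49 (two-sided exact permutation p = 0.029, the smallest that 4 against 4 allows, and 0.14 after Benjamini-Hochberg adjustment over 5 times). At 9 hr the means were 7.95 ± 0.33 in WT and 8.36 ± 0.26 in Cpeb4-/- (SD, n = 4 each, exact permutation p = 0.11). The 9 hr difference was 0.77 within batch 1 and 0.05 within batch 2, and 0.52 without knockout mouse 2 (exact permutation p = 0.11). At 3 hr it was 0.19, at 1 hr 0.09 and untreated 0.12, with exact p of 0.23 to 0.4.

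**Figure D2:**
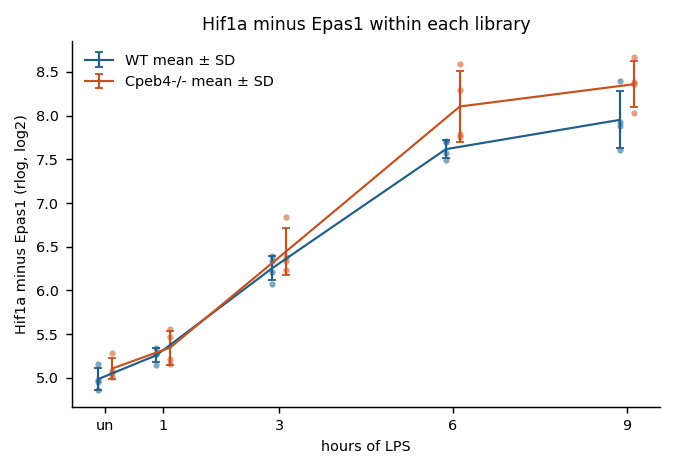
Hif1a minus Epas1 rlog (log2, y axis) in each of the 40 libraries against hours of LPS (un, untreated), WT in blue and Cpeb4-/- in orange, with group means and SD bars. The groups separate at 6 hr and overlap at the other 4 times.

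Egln1 (8:124908587-124949254, minus strand) encodes PHD2, the main hydroxylase that limits HIF-1alpha in normal oxygen. Untreated values were 10.32, 10.38, 10.34 and 10.30 in WT and 10.23, 10.32, 10.33 and 10.36 in Cpeb4-/-, which overlap. At 6 hr they were 10.03, 9.92, 10.01 and 9.83 in WT and 10.32, 10.20, 10.26 and 10.46 in Cpeb4-/-. At 9 hr they were 10.32, 10.44, 10.38 and 10.49 in WT and 10.83, 10.79, 10.83 and 11.02 in Cpeb4-/-. At both late times every knockout library was above every WT library. The differences were 0.36 (SE 0.0619, adjusted p = 0.00249) and 0.46 (SE 0.0635, adjusted p = 0.00344 by limma). Within batches they were 0.40 and 0.33 at 6 hr and 0.50 and 0.41 at 9 hr, and without knockout mouse 2 the 9 hr difference was 0.47 (adjusted p = 0.00098).

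The time courses of Egln1 differed between the genotypes. In WT the mRNA fell by 0.38 at 3 hr and by 0.39 at 6 hr in all 4 mice (adjusted p = 1.01e-07 and 3.55e-08 by limma), and returned to 0.07 above untreated at 9 hr (adjusted p = 0.233). In Cpeb4-/- it fell by 0.29 at 3 hr (adjusted p = 9.71e-06), was back at its untreated mean at 6 hr, and was 0.55 above it at 9 hr in all 4 mice (adjusted p = 1.71e-11). After quantile normalization the knockout at 6 hr lay 0.16 below untreated (adjusted p = 0.00621) and WT 0.54 below. The change from untreated was larger in the knockout by 0.39 at 6 hr (SE 0.0756, adjusted p = 0.0028) and by 0.48 at 9 hr (adjusted p = 0.000289, limma). The step from 3 to 6 hr differed by 0.30 (adjusted p = 0.0392), a call that 6 of 13 alternatives lost. The 9 hr knockout mean stood 0.46 above the next of the 10 group means, while the untreated and 1 hr means of both genotypes and the knockout mean at 6 hr lay within their SD of their neighbours.

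Egln3 (12:54178981-54203874, minus strand) encodes PHD3, a hydroxylase whose gene is itself a HIF target. Untreated values were 5.05, 5.00, 4.90 and 5.09 in WT and 5.11, 5.13, 4.78 and 5.39 in Cpeb4-/-, and the ranges overlap. At 6 hr they were 5.12, 4.93, 4.84 and 4.74 in WT and 6.07, 5.55, 5.71 and 5.82 in Cpeb4-/-. At 9 hr they were 6.31, 6.61, 6.61 and 7.22 in WT and 7.51, 7.34, 7.42 and 8.04 in Cpeb4-/-. The genotypes did not overlap at 6 or 9 hr, though WT mouse 88 came close to the knockout at 9 hr. The differences were 0.88 (SE 0.132, adjusted p = 0.00128) and 0.89 (SE 0.197, adjusted p = 0.0238 by limma). The 9 hr call was lost without WT mouse 25, 69 or 87 or knockout mouse 62, where the differences stayed between 0.74 and 0.87, and with no filter on low values (adjusted p = 0.0921). Without knockout mouse 2 it was 0.91 (adjusted p = 0.00795). Within batches the differences were 0.75 and 1.00 at 6 hr and 0.92 and 0.86 at 9 hr.

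In WT macrophages Egln3 rose late, with changes from untreated of -0.12 at 3 hr and -0.10 at 6 hr that did not pass the test and 1.68 at 9 hr (SE 0.171, 3.2-fold, adjusted p = 6.46e-11 by limma). In Cpeb4-/- it had risen by 0.68 at 6 hr in all 4 mice (adjusted p = 0.000521) and by 2.47 at 9 hr (5.56-fold, adjusted p = 2.46e-15). At 1 hr the changes of 0.39 and 0.36 did not pass (adjusted p = 0.0731 and 0.0864 by limma) and passed with the mouse as a block (0.0202 and 0.0265). The WT change also passed after quantile normalization (0.0481) and without WT mouse 25 (0.0463), and the knockout change without WT mouse 88 (0.0415). The knockout change exceeded the WT change by 0.78 at 6 hr and 0.80 at 9 hr. That difference did not pass the test without the block (adjusted p = 0.0675 and 0.0857) and passed with it (0.0101 and 0.0114, limma). Among the 10 group means the knockout at 9 hr, WT at 9 hr and the knockout at 6 hr each stood apart by more than their SD.

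Egln2 (7:27158658-27166802, minus strand) encodes PHD1 and went the other way. At 6 hr the values were 11.83, 11.82, 11.87 and 11.85 in WT and 11.62, 11.56, 11.58 and 11.78 in Cpeb4-/-. At 9 hr they were 11.65, 11.71, 11.67 and 11.62 in WT and 11.59, 11.20, 11.41 and 11.32 in Cpeb4-/-. Every knockout library was below every WT library at both times and also at 3 hr. The differences were -0.21 at 6 hr (SE 0.0484, adjusted p = 0.0123), -0.28 at 9 hr (SE 0.0747, adjusted p = 0.0439) and -0.27 at 3 hr (adjusted p = 0.0643 by limma). In the 40-library fit with the mouse as a block the 3 hr difference passed (adjusted p = 0.0279), the 1 hr difference of -0.24 passed (0.025) and the 6 hr difference did not (0.0726). Within batches the difference was negative at all 5 times, from -0.14 to -0.38. The 9 hr call was lost on leaving out any 1 mouse but knockout mouse 2, without which the difference was -0.36 (adjusted p = 0.00122). Quantile normalization also lost the 6 and 9 hr calls (adjusted p = 0.058 and 0.0727).

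After LPS Egln2 rose by 0.55, 0.61 and 0.43 at 3, 6 and 9 hr in WT and by 0.43, 0.53 and 0.28 in Cpeb4-/- (SE 0.0807, adjusted p of 0.00239 or less by limma). All 4 mice of either genotype rose at these times, and WT at 6, 3 and 9 hr held the highest means. These rises depended on the scaling. After quantile normalization the WT values were 0.26, 0.17 and 0.16, of which the 3 hr value passed (adjusted p = 0.00894 by limma) and the others did not (0.082 and 0.111). The knockout values were 0.19, 0.17 and 0.06, and none passed (adjusted p = 0.0575, 0.0766 and 0.576). The change differed between genotypes by -0.15 at most, at 9 hr (SE 0.114), and the test of that difference passed at no time. An overlap of 11 exon bases with Cyp2t4 on the opposite strand makes up 0.393% of its exons.

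Vhl (6:113623994-113631634, plus strand), the substrate adaptor of the ubiquitin ligase, dipped and then rose. At 6 hr the values were 10.15, 10.14, 10.20 and 10.29 in WT and 10.41, 10.31, 10.33 and 10.34 in Cpeb4-/-. The groups did not overlap, by a narrow margin. The difference was 0.15 (SE 0.0449, adjusted p = 0.0357 by limma), and this call was lost on leaving out any 1 mouse but WT mouse 88 and knockout mouse 55, with differences of 0.13 to 0.17. It was also lost with no filter on low values, without a trend and with batch as a covariate (adjusted p = 0.0566, 0.071 and 0.0574). At 9 hr the difference was 0.12 (adjusted p = 0.217), and without knockout mouse 2 it was 0.11 (adjusted p = 0.164). At 1 hr every knockout library was below every WT library (9.23 to 9.28 against 9.29 to 9.46), a difference of -0.11 that did not pass (adjusted p = 0.169).

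After 1 hr Vhl fell by 0.32 in WT macrophages and by 0.38 in the knockout (SE 0.0421, adjusted p = 7.62e-08 and 2.02e-09 by limma), in all 8 mice. At 3 hr it was still 0.13 below untreated in both, a call that WT lost without mouse 88 and the knockout without mouse 62 (adjusted p = 0.0555 and 0.0616). It was 0.51 and 0.71 above untreated at 6 hr and 0.66 and 0.83 at 9 hr, in every mouse (adjusted p of 2.55e-13 or less). The 6 hr change was larger in the knockout by 0.20 (SE 0.0596), with an adjusted p of 0.052 that became 0.0243 with the mouse as a block, 0.0465 with no filter and 0.0455 with a mean rlog of at least 5. The 2 group means nearest each other were WT at 9 hr and Cpeb4-/- at 6 hr (gap 0.0022).

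Hif1an (19:44562854-44576274, plus strand) encodes FIH and moved least, its 10 group means spanning 0.33. At 6 hr the values were 10.48, 10.50, 10.50 and 10.51 in WT and 10.38, 10.41, 10.37 and 10.38 in Cpeb4-/-. At 9 hr they were 10.45, 10.51, 10.43 and 10.43 in WT and 10.24, 10.38, 10.21 and 10.34 in Cpeb4-/-. Every knockout library was below every WT library at both times. The differences of -0.11 (SE 0.036, adjusted p = 0.0527) and -0.16 (SE 0.0534, adjusted p = 0.0872 by limma) did not pass. The 6 hr difference passed with no filter on low values and with a mean rlog of at least 5 (adjusted p = 0.0111 and 0.0445). The 9 hr difference passed with all 40 libraries and the mouse as a block (adjusted p = 0.00641) and without mouse 2 (-0.14, adjusted p = 0.0433). In WT it fell by 0.13 at 1 hr (adjusted p = 0.021 by limma), a call lost without mouse 25, 87 or 88 (adjusted p = 0.0587, 0.0963 and 0.0572). It was 0.20 and 0.16 above untreated at 6 and 9 hr (adjusted p = 9.73e-05 and 0.0015 by limma), but quantile normalization left 0.00 and 0.03, which did not pass. In Cpeb4-/- the changes at 3, 6 and 9 hr of 0.02, 0.10 and 0.01 turned negative under that scaling (-0.11, -0.06 and -0.12), so no direction after LPS is given for the knockout. WT at 6 and 9 hr and the knockout at 6 hr held its highest means, and the next 6 lay within their SD of their neighbours.

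Counted over the 8 members, limma called 0 untreated, 0 at 1 hr and 0 at 3 hr, with 2 members at an unadjusted p under 0.05 each time. The shares of all genes called were 1.31%, 1.91% and 3.68%. At 6 hr 5 of 8 were called, 4 higher and 1 lower, against 16.3% of all genes (6.4% higher, 9.92% lower). Groups did not overlap for 6 of 8, against 20.2% of all genes. At 9 hr 3 of 8 were called, 2 higher and 1 lower, against 7.91% of all genes, and 4 of 8 did not overlap, against 16.9%. Without knockout mouse 2 the 9 hr count was 6 of 8, and the share of all genes called rose to 35.2%. With all 40 libraries and the mouse as a block it was 5 of 8 against 18.1%. The same fit called 2 members at 1 hr (Arnt and Egln2, against 33% of all genes) and 1 at 3 hr (Egln2, against 10.6%). After 6 and 9 hr the median over the members was 0.10 and 0.12, and over all genes tested -0.02 and 0.00.

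**Figure D3:**
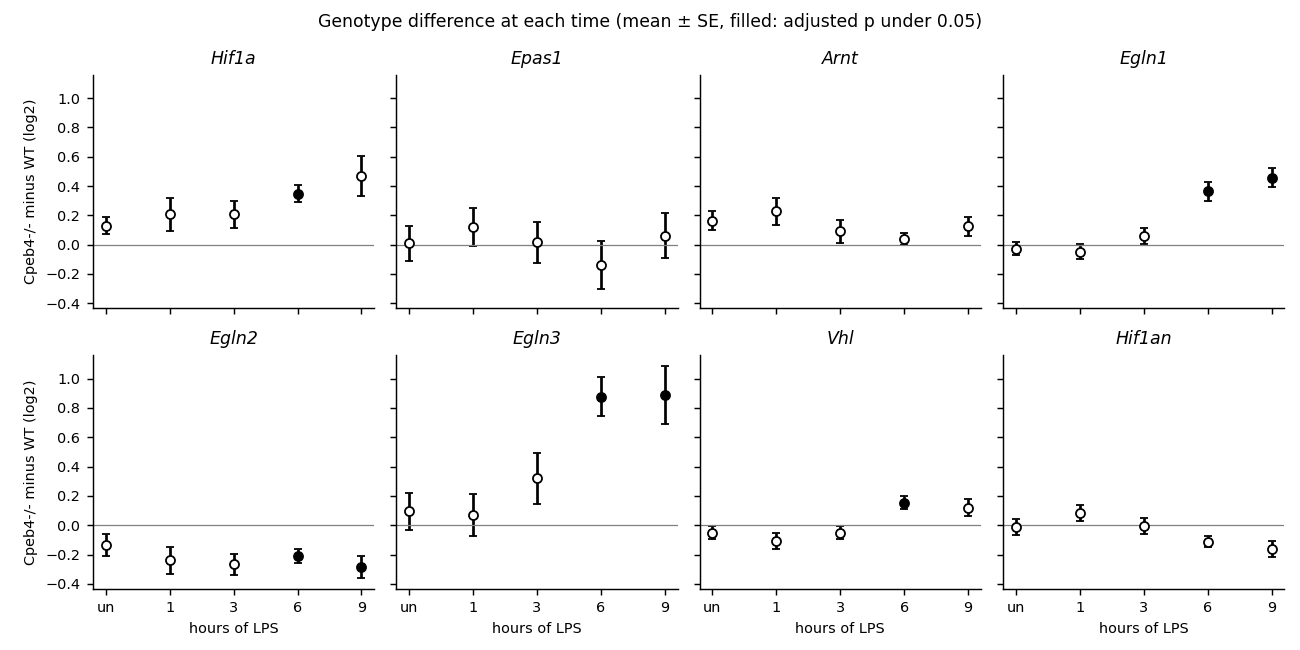
Cpeb4-/- minus WT (log2, y axis, shared by all panels) for each of the 8 genes at the 5 times, with SE bars from the limma fit and filled points where the adjusted p is under 0.05. Egln3 reaches 0.88 and 0.89 at 6 and 9 hr, Egln1 0.36 and 0.46, and Egln2 lies below 0 at every time.

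The LPS changes of the members stood near the background of a response that moved most genes. In WT 3, 4, 7 and 7 of the 8 members were called at 1, 3, 6 and 9 hr, against 37.7%, 69.9%, 79.9% and 73.7% of all genes. In Cpeb4-/- the counts were 2, 4, 7 and 7, against 41.9%, 69.9%, 77.9% and 71.3%. The exception at 6 hr was Egln3 in WT and Egln1 in Cpeb4-/-. At 9 hr it was Egln1 in WT and Hif1an in Cpeb4-/-. The change from untreated was called as different between genotypes for 1 of 8 members, Egln1, at 6 hr (2.94% of all genes) and at 9 hr (1.76%). With the mouse as a block the counts were 3 (Egln1, Egln3 and Vhl, against 7.88% of all genes) and 2 (Egln1 and Egln3, against 4.99%). At 1 and 3 hr the count was 0, with 0 members at an unadjusted p under 0.05, and 0.00763% and 0.206% of all genes were called.

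**Figure D4:**
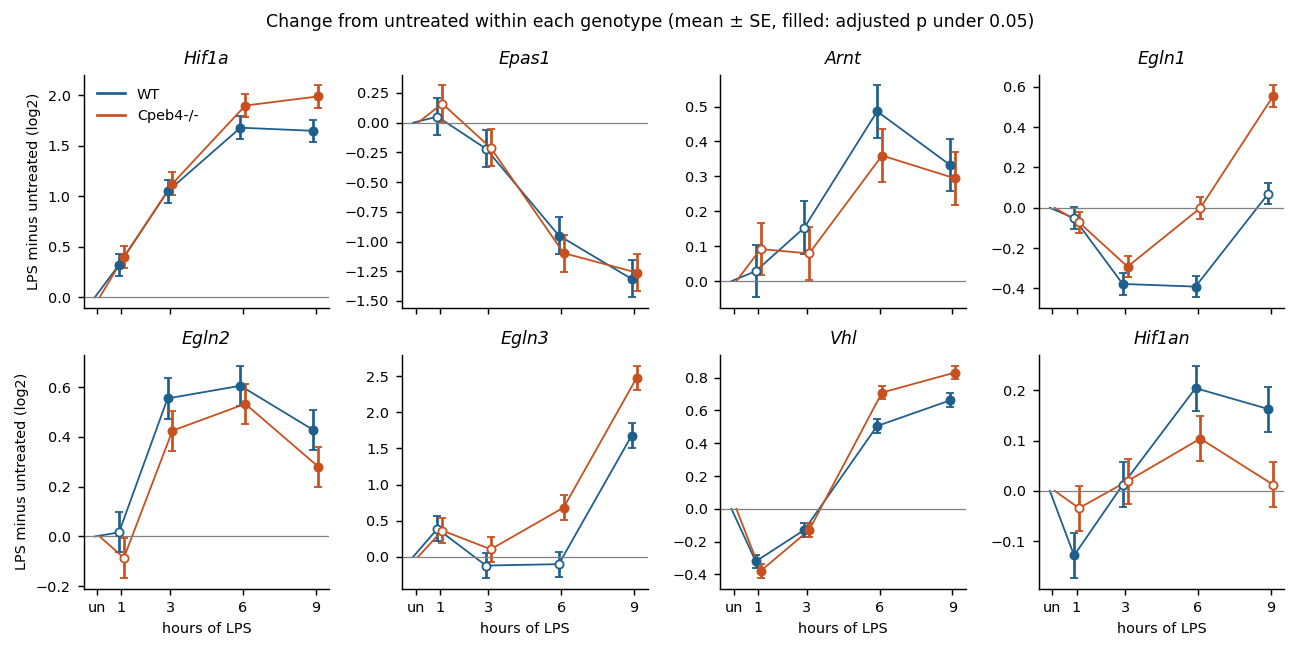
Change from untreated (log2, y axis, a separate scale for each gene) in WT (blue) and Cpeb4-/- (orange) for the 8 genes against hours of LPS, with SE bars from the 40-library limma fit and filled points where the adjusted p is under 0.05. Egln1 falls by 0.39 at 6 hr in WT and is at its untreated mean in Cpeb4-/- (0.54 and 0.16 below after quantile normalization), and Egln3 has risen at 6 hr in Cpeb4-/- but not detectably in WT.

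For each member the 2 genes with the most similar 10 group means were named by Pearson's r, a description over points that share libraries and one LPS course. They were Rab6a and Cyb5b for Hif1a (r = 0.992 and 0.991), B3glct and Strbp for Epas1 (0.997 both), Agps and Gfpt1 for Arnt (0.993 and 0.989), and Fastk and Tmem63a for Vhl (0.987 and 0.984). Egln2 went with Gpr108 and Isca2 (0.984 and 0.979) and Egln3 with Prelid2 and Srebf1 (0.972 and 0.969). Egln1 and Hif1an had looser neighbours, Aox1 and Runx3 (0.954 and 0.937) and Map3k11 and Cyth4 (0.932 and 0.929).

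A list of 20 genes was drawn up around HIF stability and cofactors and tested in the same fits. It held the VHL complex subunits Elob, Eloc, Cul2 and Rbx1, coactivators such as Ep300 and Crebbp, chaperones, Siah ligases and others, among them Arnt2 and Ado. No gene of the 18 measured above the filter was called at 6 or 9 hr, nor of the 19 earlier, and the median difference was -0.02 at 6 hr and -0.06 at 9 hr. Without knockout mouse 2 at 9 hr, 2 were called higher and 4 lower, against 35.2% of all genes. After 9 hr of LPS 9 of 19 were higher and 4 lower in either genotype, against 37% and 36.6% of all genes in WT and 35.7% and 35.6% in Cpeb4-/-. Cited2 competes with HIF-1alpha for the coactivators. At 9 hr it was below untreated by 1.25 in WT and by 0.97 in Cpeb4-/- (adjusted p = 8.64e-17 and 9.96e-14 by limma). Before that its mean had risen, in WT from 11.62 untreated to 13.10 at 1 hr and 13.14 at 3 hr. In Cpeb4-/- these means were 11.44, 13.09 and 12.96. Eloc, a VHL partner, rose by 0.57 and 0.63.

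In a list of 24 HIF target genes, 12 passed as higher in the knockout after 6 hr and 1 as lower, and after 9 hr 12 passed as higher and 0 as lower. Of all genes 4.69% were higher and 3.22% lower at 9 hr. Of all genes 6.4% were higher and 9.92% lower at 6 hr. Earlier, 1 gene passed as higher untreated (Bhlhe40, 0.46, adjusted p = 0.0322 by limma), 0 at 1 hr and 4 at 3 hr, and 0 as lower. Of all genes 0.741%, 0.976% and 1.81% were higher at these times. After 6 and 9 hr the median over the list was 0.19 and 0.38. Without knockout mouse 2 at 9 hr, 15 were higher and 1 lower, where 35.2% of all genes were called against 7.91% with it, and the list's median was 0.36. The 4 largest of those called at 9 hr were Vegfa, the vascular growth factor (0.87, SE 0.142, adjusted p = 0.00704), Mxi1, an antagonist of Myc (0.80, SE 0.12, adjusted p = 0.00512), Ankrd37 (0.75, SE 0.161, adjusted p = 0.021) and Ak4, an adenylate kinase of mitochondria (0.73, SE 0.0836, adjusted p = 0.00158), all by limma. At 6 hr these differed by 0.37, 0.15, 0.78 and 0.64, and the Mxi1 value did not pass. The gene lower at 6 hr was Ndrg1 (-0.48, SE 0.0553, adjusted p = 0.000314). Within the list the change from untreated was called as larger in the knockout for 4 genes at 9 hr, against 0.992% of all genes. The list was drawn up with earlier results of these libraries known, so its direction is no independent support.

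**Figure D5:**
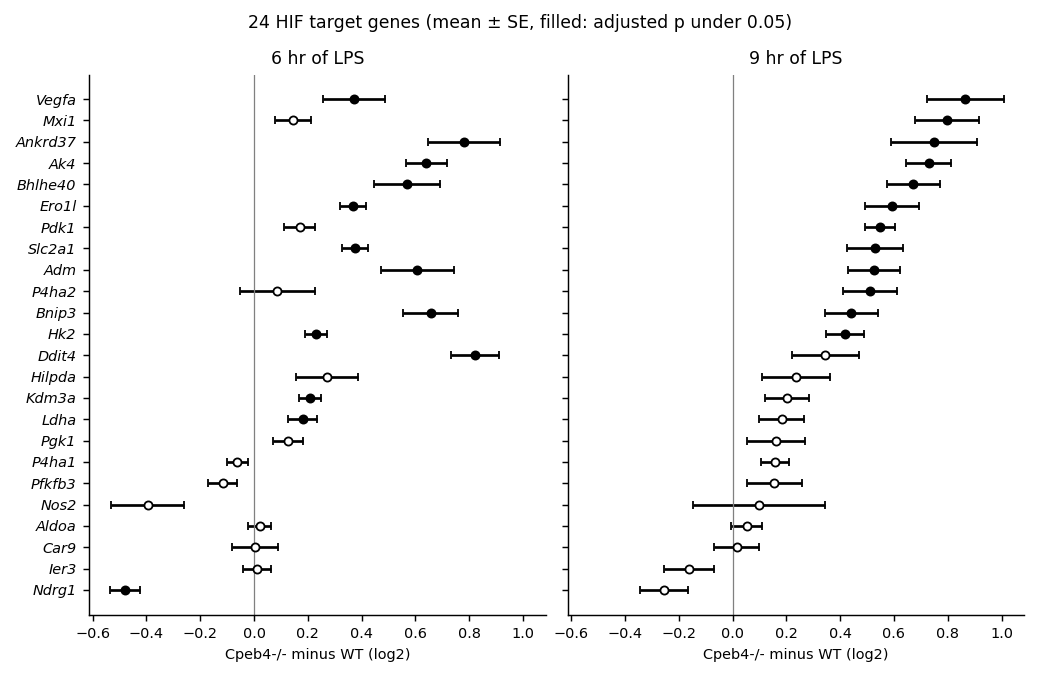
Cpeb4-/- minus WT (log2, x axis, shared by both panels) for 24 HIF target genes at 6 hr (left) and 9 hr (right) of LPS, ordered by the 9 hr value, with SE bars and filled points where the limma adjusted p is under 0.05. At each time 12 filled points lie right of 0, and at 6 hr Ndrg1 lies left of it at -0.48.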

How the data were processed

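Poly(A) RNA of 40 BMDM libraries was sequenced. Per the labels and the study's methods, the authors aligned reads to mm10 with STAR 2.3.0e, counted them per gene with featureCounts and deposited log2 values from the rlog transformation of DESeq2 (versions of the last pair: not given in the sources used here). rlog keeps no total counts, so depth is unknown and no counting interval is given. The kit does not mark strand.

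The members and lists were chosen with earlier results of these data known. Genes whose rlog averaged log2 of 5 or more were tested with limma 3.58.1 (R 4.3.3, trend) and Benjamini-Hochberg adjustment, called under 0.05: genotypes at each time in its 8 libraries (13008 to 13118 genes), and LPS changes and their genotype difference in 1 fit of 10 group means (13103 genes). The fits were tested on simulated data. Mouse numbers mark the same animal at all times (labels). Deviations from group means correlated with a median r of 0.29 within mice (68 of 80 pairs over 0.1), so blocked values stand beside results they change. The -0.09 between mice of a genotype is no separate comparison, since deviations from a group mean cancel within the group. Named genes were all 8 members, their 2 most similar genes, and up to 4 genes per list called at 9 hr with the largest difference. Cited2, the VHL complex subunits and Ndrg1 were given beside this rule. Alternatives were filters, eBayes without trend, quantile normalization, batch, all 40 libraries, the mouse block and leaving out each mouse. Gene locations and promoters come from RefSeq (GRCm38.p6) and 3′UTRs from GENCODE vM21.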

Additional observations from a re-analysis of the deposited data

Results flagged for a closer look

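Of the 80 groups of 4 libraries formed by the 8 genes, 2 held a library far from the other 3, where chance alone flags about 1 in 20 groups. Hif1a in Cpeb4-/- mouse 55 at 6 hr was 13.63, against 13.43 to 13.46 in the other 3 mice. Egln3 in WT mouse 88 at 3 hr was 5.35, against 4.70 to 4.78 in the other 3, and without this mouse Egln3 at 3 hr was called higher in the knockout (0.47 against 0.32 with it).

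The change of Egln1 from untreated differed between the genotypes by limma's interaction test, by 0.39 at 6 hr and by 0.48 at 9 hr.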

How the results depend on the processing

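Genotype calls among the members moved with the spread estimate and with single mice, and the cause was not tested. At 1 hr the count of 0 became 3 with all 40 libraries in 1 fit and 2 with the mouse as a block, and ranged from 0 to 1 on leaving out a mouse (1 without WT mouse 69). At 3 hr the count of 0 became 1 with all 40 libraries and 1 with the block, and ranged from 0 to 3 (3 without WT mouse 88: Hif1a, Egln2 and Egln3). At 9 hr the count of 3 became 1 with no filter on low values, 6 with all 40 libraries and 5 with the block. It ranged from 1 (without WT mouse 25, 69 or 87 or knockout mouse 62) to 6 (without knockout mouse 2). For the change from untreated, the count of 1 at 6 hr became 2 with no filter, 2 with a mean rlog of at least 5 and 3 with the block. At 9 hr the count of 1 became 2 with the block and ranged from 1 to 2 (2 without WT mouse 88). After 1 hr of LPS in Cpeb4-/- the count of 2 became 4 under quantile normalization. Hif1a lost its call there (adjusted p = 0.108 by limma). Egln1, Egln2 and Hif1an were then called lower (-0.19, -0.24 and -0.15, adjusted p = 0.00319, 0.0245 and 0.00745 by limma). In WT at 1 hr Egln1 was also called lower under that scaling (-0.15, adjusted p = 0.0216 by limma).

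Under quantile normalization Hif1an changed direction after LPS, to -0.12 in WT at 3 hr and to -0.11, -0.064 and -0.12 in Cpeb4-/- at 3, 6 and 9 hr. On leaving out a mouse, the 6 hr difference of Hif1a minus Epas1 ranged from 0.33 to 0.60. Its exact permutation p was 0.11 to 0.14 without a WT mouse and 0.029 without a knockout mouse. Within batches 1 and 2 that difference was 0.26 and -0.020 untreated, and 0.77 and 0.046 at 9 hr.

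The count of all genes called at 9 hr, 1029 as reported, was 582 with no filter, 1781 with batch as a covariate, 2280 with all 40 libraries, 2378 with the block, and 387 (without WT mouse 25) to 4575 (without knockout mouse 2) on leaving out a mouse. With no filter, all 40 libraries and the block in turn, the 171 genes called untreated became 50, 326 and 414, the 251 at 1 hr 53, 4182 and 4323 (146 with batch as a covariate), and the 481 at 3 hr 167, 1311 and 1393 (194 with batch). The 2129 at 6 hr became 1288 with no filter. For the difference in change from untreated, the block took 27 genes at 3 hr to 72, 385 at 6 hr to 1032 and 231 at 9 hr to 654, and quantile normalization took the 385 to 227. Of 600 single-gene genotype values under alternatives, 550 stayed on their side of the threshold, 27 lost a call and 23 gained one. Of 1568 LPS values, 41 lost a call and 18 gained one. Of 728 interaction values, 6 lost a call and 7 gained one. The genotype calls for Egln1 at 6 and 9 hr, and those for its difference in change from untreated, held in every alternative run. In the list drawn up around HIF stability and cofactors, the count called at 9 hr went from 0 to 6 without knockout mouse 2, an alternative chosen after seeing the data. With the mouse as a block, 6 steps between LPS times also gained a call (Epas1, Arnt and Egln2 in WT, Hif1an from 3 to 6 hr and from 6 to 9 hr in the knockout, and the genotype difference of Vhl), and beyond these and the results given with the block above it changed no other call. rlog keeps no depth, so detection limits are not given.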
